A study of Mus musculus with 4 samples.

Results

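The 27 genes described here encode the enzymes that build cholesterol from acetyl-CoA, the proteins that control the transcription factor SREBP2, and a sterol carrier. They were matched by gene symbol, and all 27 were found among the 55414 genes listed in the deposited table. The set was chosen with earlier results of these data known. RNA was sequenced from mouse peritoneal macrophages, phagocytes of the abdominal cavity, given LUP (0.5 mg/ml) or only its vehicle, complete medium, over 24 h. The labels do not spell out LUP, and they give no strain, sex or age of the mice and no agent used to draw the cells. Each group had 2 libraries, of 19949818 to 23617618 counts, and nothing in the labels says that they came from separate cultures or animals, so p-values measure only the spread between these libraries.

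Cells make cholesterol in the endoplasmic reticulum through a long chain of reactions. The mevalonate arm builds isoprene units, prenyl diphosphate synthases join them, squalene is formed and closed into lanosterol, and a last series of enzymes trims lanosterol to cholesterol. SREBP2 switches on nearly all of these genes when membrane sterol is low: SCAP carries the SREBP2 precursor to the Golgi, where the site-1 and site-2 proteases release its active part, and INSIG proteins hold the complex back when sterol is plentiful. Macrophages, which take up much cholesterol from lipoproteins and dead cells, usually keep this pathway low, and interferon and Toll-like receptor signals are known to alter it.

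Markers of the labelled cell type were present. Cd68, a macrophage glycoprotein gene, stood at 4013 to 4258 TPM (a transcript level scaled for gene length and for library size) in the 4 libraries, and 9 of 9 macrophage markers had counts. Their sum was 21356 and 21562 TPM with LUP and 27307 and 26941 TPM with vehicle, most of it Lyz2, and 5 were called higher and 3 lower. Gata6, the factor that defines resident large peritoneal macrophages, had 1.34 and 1.1 TPM with LUP and 2.67 and 3.59 TPM with vehicle. It fell 2.0-fold (adjusted p = 0.000429, edgeR), and Mertk fell 1.36-fold. Adgre1, in the same list, had 587 and 584 TPM with LUP and 115 and 123 TPM with vehicle, and rose 4.86-fold. Itgam rose 1.94-fold, and Timd4 rose from few counts, with 28 and 20 with LUP and 0 and 1 with vehicle. The summed level of the B cell, T and NK cell, mast cell and erythroid marker lists was at most 6.25 TPM in any library. The 7 mesothelial and fibroblast markers summed to 87.9 and 95.8 TPM with vehicle and to 114 and 92.5 TPM with LUP. The 8 neutrophil markers summed to 29.6 and 32.9 TPM with vehicle and to 89.4 and 92.4 TPM with LUP, nearly all of it S100a8, with Ly6g, Mpo and S100a9 at 0 in each library. The part of these other cells, or of the shifts in the macrophage markers, in the results below was not tested. In bulk RNA, fewer cells that express a gene and less of its RNA per cell cannot be told apart.

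With LUP, 11 of the 27 genes fell and 5 rose, while 11 did not pass the test. The largest falls were those of Hmgcs1, Sc5d, Dhcr7, Stard4, Cyp51 and Msmo1, which are 4 late sterol enzymes, the HMG-CoA synthase and a sterol carrier. The rises were Hsd17b7, Mvd, Pmvk, Lbr and Fdps. All changes were small: in the main test only Hmgcs1 passed 1.5-fold, a size that 20.4% of all tested genes reached with a call. At their furthest under other settings, Sc5d (log2 -0.68), Dhcr7 (-0.65), Stard4 (-0.62) and Hsd17b7 (0.70) were among those that passed it too. Calls rest on edgeR's quasi-likelihood test with a threshold of 0.05 on the p adjusted over 13355 tested genes, which included all 27. Of all tested genes 50.8% were called, against 59.3% of the members. In the downward direction the shares were 23.7% of all genes and 40.7% of the members, and in the upward direction 27.1% and 18.5%. The median log2 change of the members was -0.07 and that of all tested genes was -0.00112. The median size of change, regardless of sign, was 0.23 for the members and 0.30 for all genes. By TPM alone, both LUP libraries lay below both vehicle libraries in 17 genes (42.3% of all genes tested) and above them in 5 (27.6% of all), so 22 of 27 did not overlap against 69.9% of all.

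**Figure D1:**
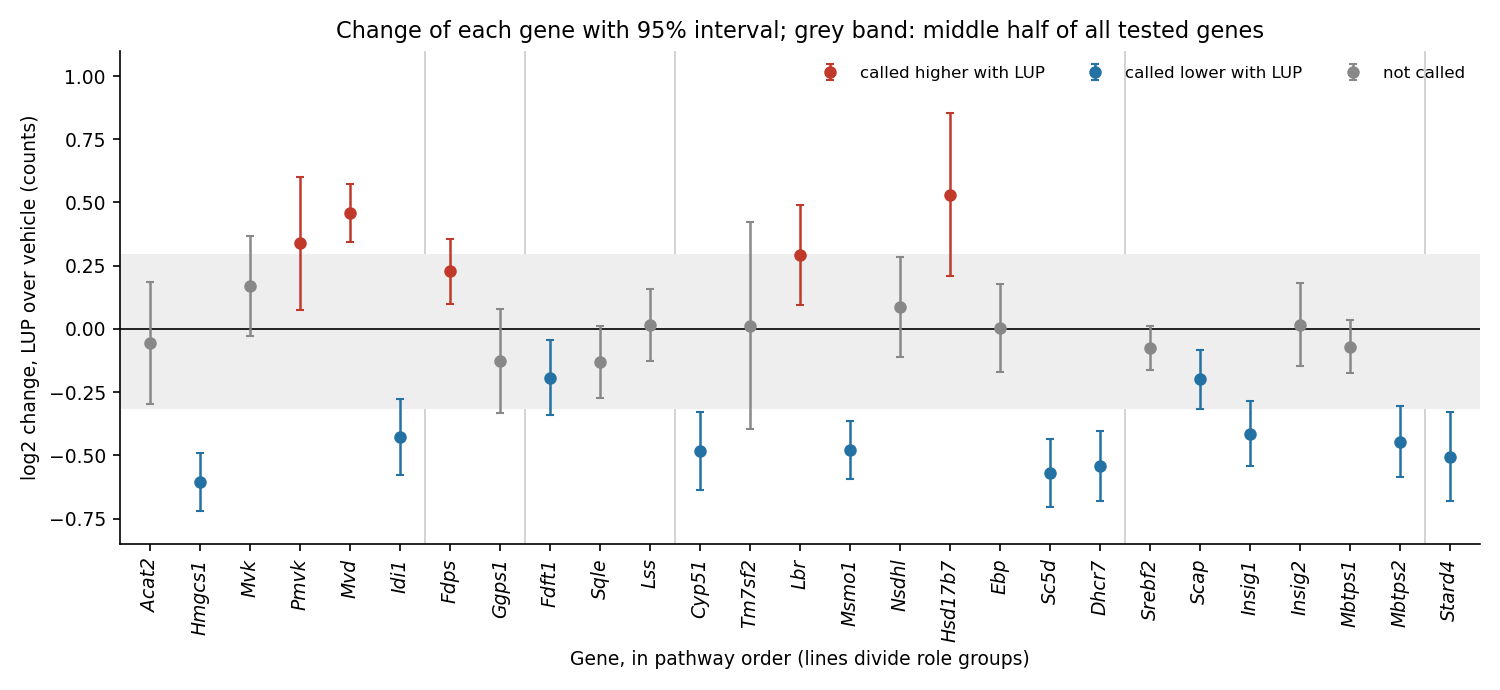
Log2 change of each gene (LUP over vehicle, fitted counts, y axis) in pathway order (x axis), with 95% intervals of the fit on 2 libraries a group; the grey band spans the quartiles of all tested genes, -0.31 to 0.29. Blue points (11) were called lower, red points (5) higher and grey points (11) were not called.

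The promoters of the 2 genes that fell most and the 2 that rose most are shown, a choice made on these same changes. Sequences known to bind SREBP2 and its partner factors lie in such windows. The windows run from 250 bases before to 50 bases after the transcription start, 5′ to 3′ on the gene's strand, from RefSeq on GRCm38.p6. Capitals mark matches to the motifs given after them.
Hmgcs1, chr13:119690101-119690400 (+ strand): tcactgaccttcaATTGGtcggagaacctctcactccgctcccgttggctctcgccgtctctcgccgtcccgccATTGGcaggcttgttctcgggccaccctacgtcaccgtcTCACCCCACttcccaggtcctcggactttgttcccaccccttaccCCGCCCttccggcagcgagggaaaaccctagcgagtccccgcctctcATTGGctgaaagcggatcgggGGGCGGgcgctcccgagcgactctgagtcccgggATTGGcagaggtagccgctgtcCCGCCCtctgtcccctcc
Sc5d, chr9:42264251-42264550 (- strand): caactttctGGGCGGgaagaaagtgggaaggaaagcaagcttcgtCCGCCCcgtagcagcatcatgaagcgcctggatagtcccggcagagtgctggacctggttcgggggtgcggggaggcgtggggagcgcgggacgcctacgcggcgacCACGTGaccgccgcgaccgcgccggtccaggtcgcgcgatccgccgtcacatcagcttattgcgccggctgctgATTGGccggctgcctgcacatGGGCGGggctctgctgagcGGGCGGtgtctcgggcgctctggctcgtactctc
Hsd17b7, chr1:169969156-169969455 (- strand): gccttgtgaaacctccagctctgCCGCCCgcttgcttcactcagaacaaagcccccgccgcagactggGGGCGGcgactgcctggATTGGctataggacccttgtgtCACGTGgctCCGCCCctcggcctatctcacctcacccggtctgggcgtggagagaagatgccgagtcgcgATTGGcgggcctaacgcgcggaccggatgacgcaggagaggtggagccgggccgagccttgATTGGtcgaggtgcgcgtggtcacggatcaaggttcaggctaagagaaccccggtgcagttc
Mvd, chr8:122443373-122443672 (- strand): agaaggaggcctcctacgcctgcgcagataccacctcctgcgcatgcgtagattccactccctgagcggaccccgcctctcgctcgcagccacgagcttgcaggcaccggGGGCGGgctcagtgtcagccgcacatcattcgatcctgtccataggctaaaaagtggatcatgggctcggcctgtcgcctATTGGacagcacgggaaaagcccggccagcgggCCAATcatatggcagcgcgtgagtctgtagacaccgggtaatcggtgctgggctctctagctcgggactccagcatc

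The motifs searched on both strands of such windows were TCACNCCAC (a shortened sterol regulatory element), its full form with an A before it, CACGTG (the E-box), CCAAT (the NF-Y box), GGGCGG (the GC box of Sp1) and the core of the interferon-stimulated element, which is GAAA, 2 bases of any kind and GAAA again. Each full sterol element also counts as a shortened one. For Sc5d the last 20 bases of the window were not found in a GENCODE M21 transcript, so its start may differ between annotations. The table of RefSeq promoters used here gave a window for 23 of the 27 genes, and the 5′-most one was taken where a gene had several. The shortened sterol element was found in 1 of these 23, in Hmgcs1, 137 bases before the start, and in 1.22% of the windows of all 27025 genes. The full form was in none of the 23 and in 0.244% of all. The CCAAT box was present in 18 of 23 members (78.3%) and in 38.02% of all genes, and the GC box in 19 of 23 (82.6%) and in 35.9% of all. Of the 9 genes called lower that had a window, 6 held CCAAT and 8 the GC box, and of the 4 called higher, 4 and 3 did. Of the 10 not called, 8 held CCAAT and 8 the GC box. The E-box lay in Sc5d, Insig1 and Scap, which fell, and in Hsd17b7, which rose, which is 4 of 23 windows (17.4%) against 7.24% of all genes. The interferon element was found in Ebp and Ggps1, neither of which was called, and in 3.49% of all genes. The 27025 genes outnumber the 13355 genes tested here, which include all members. Shares among tested genes only were not computed, so the shares of members and of all genes are not like for like. These are matches of letters in a short window and say nothing of binding.

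The mevalonate arm split by step. Hmgcs1, the synthase that makes HMG-CoA and commits acetyl units to the pathway, stood at 25.2 and 23.02 TPM with LUP and at 39.9 and 41.3 TPM with vehicle. The LUP libraries lay well below both vehicle libraries. It fell 1.52-fold, a log2 change of -0.60 (SE 0.055, adjusted p = 2.31e-08, edgeR), larger in size than that of 75.4% of all tested genes. Idi1, the isomerase that readies isoprene units for joining, had 12.8 and 13.6 TPM with LUP and 17.9 and 19.7 TPM with vehicle. It fell 1.34-fold (log2 -0.43, SE 0.072, adjusted p = 5.91e-05).

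The kinase and decarboxylase steps between them did not follow. Mvd, the decarboxylase that yields the isoprene unit, stood at 46.7 and 48.6 TPM with LUP and at 37.3 and 40.2 TPM with vehicle, with no overlap. It rose 1.37-fold (log2 0.46, SE 0.055, adjusted p = 1.02e-06). Pmvk, which adds the second phosphate to mevalonate, had 15.9 and 15.5 TPM with LUP and 14.5 and 13.2 TPM with vehicle, and rose 1.26-fold (log2 0.34, SE 0.125, adjusted p = 0.0306). That call was lost in 9 of 13 other settings: without LUP replicate 2 (adjusted p = 0.0921), vehicle replicate 1 (0.0784) or vehicle replicate 2 (0.131), and in 6 settings of another test, scaling, filter or scale (0.0529 to 0.21). Mvk, the mevalonate kinase, overlapped between the groups at 15.9 to 18.4 TPM, with a log2 change of 0.17 and a 95% interval of -0.03 to 0.37. Acat2, the thiolase that joins acetyl-CoA, had 7.27 to 8.52 TPM and a log2 change of -0.05 (interval -0.30 to 0.19).

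Summed over the 6 genes of the arm, the level was 126 and 125 TPM with LUP and 136 and 138 TPM with vehicle. The sum therefore hid opposite changes, since Hmgcs1 and Idi1 fell while Mvd and Pmvk rose.

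**Figure D2:**
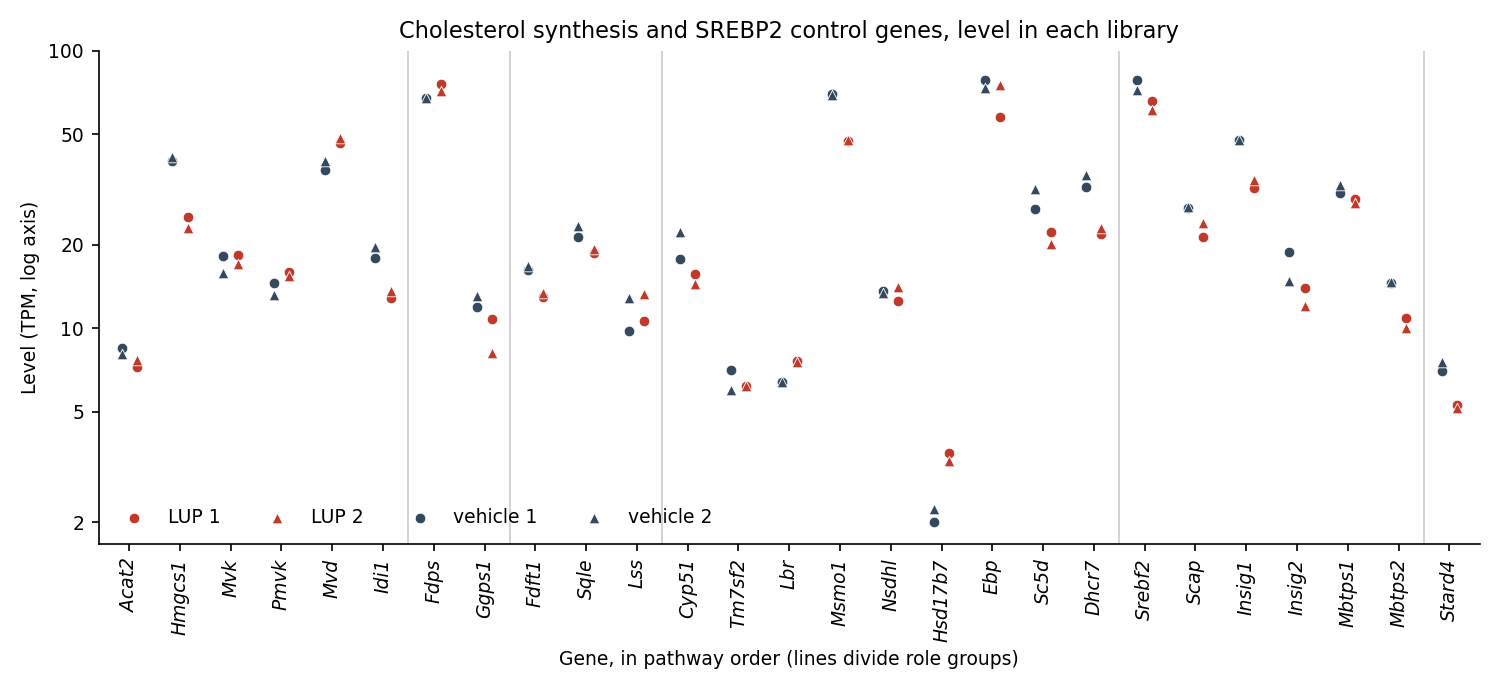
Level of each gene in each library (TPM, log y axis) in pathway order (x axis); circles are replicate 1 and triangles replicate 2, LUP in red and vehicle in dark blue. Levels run from 2.01 TPM for Hsd17b7 in a vehicle library to 78.5 TPM for Srebf2, and the LUP libraries of Hmgcs1 and Msmo1 lie clearly below their vehicle libraries.

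The prenyl diphosphate synthases feed both sterols and the lipid anchors of small GTPases. Fdps, which makes farnesyl diphosphate, had 75.6 and 71.6 TPM with LUP and 67.4 and 67.5 TPM with vehicle. It rose 1.17-fold (log2 0.23, SE 0.061, adjusted p = 0.0043). Ggps1, which extends farnesyl to geranylgeranyl diphosphate, had 10.8 and 8.17 TPM with LUP and 11.97 and 13.04 TPM with vehicle, and its log2 change of -0.13 (SE 0.097) did not pass (adjusted p = 0.296). The rise of Fdps was not called with upper quartile scaling (adjusted p = 0.127), after quantile normalization (0.106) or with TPM in place of counts (0.125 with limma on log2(TPM + 1)).

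Of the 3 genes from squalene to lanosterol 1 fell (33.3%, beside 23.7% of all genes). Fdft1, the squalene synthase at the branch point to sterols, had 13 and 13.4 TPM with LUP and 16.2 and 16.8 TPM with vehicle, and fell 1.14-fold (log2 -0.19, SE 0.071, adjusted p = 0.0296). Without LUP replicate 1, vehicle replicate 1 or vehicle replicate 2 its adjusted p was 0.161, 0.0509 and 0.166, and the call was also lost with the DESeq2 test (0.197) and with no filter on low counts (0.0636). Sqle, the squalene epoxidase that is often rate-limiting for the sterol branch, had 18.7 and 19.3 TPM with LUP and 21.3 and 23.3 TPM with vehicle. Both of its LUP values lay below the vehicle values, yet the change on counts, a log2 of -0.13 (interval -0.27 to 0.01), did not pass (adjusted p = 0.12). Lss, which closes the sterol rings, overlapped between the groups at 9.77 to 13.3 TPM, with a log2 change of 0.01 (interval -0.13 to 0.16).

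The steps from lanosterol to cholesterol held 4 falls and 2 rises among 9 genes (66.7% called, beside 50.8% of all genes). Sc5d, the desaturase near the end of the chain, had 22.2 and 20.2 TPM with LUP and 26.9 and 31.9 TPM with vehicle, and fell 1.48-fold (log2 -0.57, SE 0.064, adjusted p = 4.49e-07). Dhcr7, the reductase that completes cholesterol from its 7-dehydro precursor, had 21.9 and 22.97 TPM with LUP and 32.2 and 35.6 TPM with vehicle. It fell 1.46-fold (log2 -0.54, SE 0.066, adjusted p = 1.20e-06). In both genes each LUP library lay below each vehicle library.

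Msmo1, the oxidase that starts removal of the methyl groups, was the most abundant of the 4 genes that fell, at 47.4 and 47.8 TPM with LUP and 70.1 and 69.3 TPM with vehicle. It fell 1.39-fold (log2 -0.48, SE 0.054, adjusted p = 5.10e-07). Cyp51, the cytochrome P450 that acts first on lanosterol, had 15.7 and 14.4 TPM with LUP and 17.8 and 22.3 TPM with vehicle, and fell 1.4-fold (log2 -0.48, SE 0.074, adjusted p = 2.01e-05). Its vehicle libraries stood further apart than its LUP libraries. On the TPM scale the fall of Cyp51 was not called (log2 -0.41, adjusted p = 0.0673 with limma on log2(TPM + 0.1)).

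Hsd17b7, the ketone reductase that works in the same demethylation complex as Msmo1, went the other way from the lowest level of all 27 genes. It had 3.55 and 3.33 TPM with LUP and 2.01 and 2.23 TPM with vehicle, from 201 and 184 counts and from 104 and 152. It rose 1.45-fold (log2 0.53, SE 0.152, adjusted p = 0.00683), and the call was lost without vehicle replicate 1 (log2 0.39, adjusted p = 0.0772) and with the DESeq2 test (log2 0.53, adjusted p = 0.0607). Nsdhl, the dehydrogenase of that complex, overlapped between the groups at 12.6 to 14.1 TPM (log2 0.09, interval -0.11 to 0.28).

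Lbr and Tm7sf2 encode reductases for the same sterol double bond, and Lbr also anchors chromatin at the nuclear envelope. Lbr had 7.61 and 7.57 TPM with LUP and 6.43 TPM in both vehicle libraries, and rose 1.22-fold (log2 0.29, SE 0.094, adjusted p = 0.0148), but the call was lost in 6 of 13 other settings. These were the fit without vehicle replicate 2 (adjusted p = 0.126), the DESeq2 test (0.154), upper quartile scaling (0.124), quantile normalization (0.0863) and both TPM scales (0.198 and 0.193). Tm7sf2 overlapped at 5.98 to 7.09 TPM, with a log2 change of 0.01 and a wide interval of -0.40 to 0.42; its libraries held at most 95.6 counts. The ratio of Tm7sf2 to Lbr in TPM was 0.815 and 0.816 with LUP and 1.1 and 0.930 with vehicle. The groups did not overlap, but an exact permutation test of 2 against 2 libraries cannot go below p = 0.333, the value it gave. Ebp, the isomerase of the late steps, had 57.6 and 74.97 TPM with LUP and 78.4 and 73.5 TPM with vehicle. Its change on counts was 0.00398 on the log2 scale (interval -0.17 to 0.18).

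The 9 genes together summed to 195 and 212 TPM with LUP and to 255 and 261 TPM with vehicle. Msmo1 and Ebp, the most abundant of them, made up much of these sums.

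Among the 6 control genes 3 fell (50%, beside 23.7% of all genes) and the other 3 did not pass the test. Insig1, whose protein retains the SCAP and SREBP2 complex and whose gene is itself an SREBP2 target, had 32.0 and 34.2 TPM with LUP and 47.7 and 47.6 TPM with vehicle. The replicates of each group lay close together and far from the other group, and Insig1 fell 1.33-fold (log2 -0.41, SE 0.061, adjusted p = 1.28e-05). Mbtps2, the site-2 protease that makes the second cut, had 10.9 and 10.1 TPM with LUP and 14.6 and 14.7 TPM with vehicle, and fell 1.36-fold (log2 -0.45, SE 0.068, adjusted p = 1.87e-05). Scap, the sterol-sensing escort, had 21.4 and 24.0 TPM with LUP and 27.2 and 27.4 TPM with vehicle, and fell 1.15-fold (log2 -0.20, SE 0.056, adjusted p = 0.00582). Without vehicle replicate 1 the adjusted p of Scap was 0.0603, and on both TPM scales it was 0.0635 and 0.0618.

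Srebf2, the gene of SREBP2, was the most abundant control gene, with 65.8 and 61.3 TPM with LUP and 78.5 and 72.5 TPM with vehicle. On counts its log2 change was -0.07 (SE 0.041) and did not pass (adjusted p = 0.144). On the TPM scale it was called lower, by -0.25 (adjusted p = 0.0385, limma on log2(TPM + 0.1)), and it was also called lower with upper quartile scaling (-0.19, adjusted p = 0.000867), after quantile normalization (-0.17, adjusted p = 0.00348) and among genes of 5 TPM or more in 1 group (-0.11, adjusted p = 0.0209). Mbtps1, the site-1 protease that makes the first cut, had 29.3 and 28.4 TPM with LUP and 30.7 and 32.8 TPM with vehicle, and a log2 change of -0.07 (SE 0.050, adjusted p = 0.253).

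Insig2, the second INSIG gene, had 13.9 and 12.01 TPM with LUP and 18.9 and 14.8 TPM with vehicle, while its counts gave a log2 change of 0.02 (interval -0.15 to 0.18). Its ratio of CPM (counts scaled for library size only) to TPM, which follows the transcript length assigned to the gene in a library, ran from 1.15 to 1.73, and its highest value over its lowest, 1.503, was the largest of the 27 genes. The TPM ratio of Insig1 to Insig2 was 2.29 and 2.85 with LUP and 2.53 and 3.22 with vehicle, and these overlapped (exact permutation p = 0.667). Stard4, a cytosolic carrier of cholesterol and an SREBP2 target, had 5.28 and 5.16 TPM with LUP and 7.05 and 7.57 TPM with vehicle. It fell 1.42-fold (log2 -0.50, SE 0.084, adjusted p = 5.08e-05).

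The choice of scale mattered for changes this small. The change was lower from TPM than from counts for 22 of the 27 genes, and the median difference over all 27 was -0.09, close to the shift of all genes between these scales (-0.10). Insig2 (-0.37 from TPM against 0.02 from counts), Ggps1 (-0.41 against -0.13) and Ebp (-0.21 against 0.00398) stood furthest below. Upper quartile scaling shifted all genes by -0.11 and quantile normalization by -0.10. The share of higher genes among all calls was 53.4% with TMM scaling, 37.8% with upper quartile scaling, 41.4% after quantile normalization and 43.4% with limma on log2(TPM + 0.1). Among the members, 5 were higher and 11 lower with TMM scaling, 2 and 15 with upper quartile scaling, 2 and 14 after quantile normalization, and 2 and 10 on the TPM scale. Hmgcs1, Idi1, Msmo1, Sc5d, Dhcr7, Insig1, Mbtps2 and Stard4 fell and Mvd rose with a call in all 13 other settings tried.

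**Figure D3:**
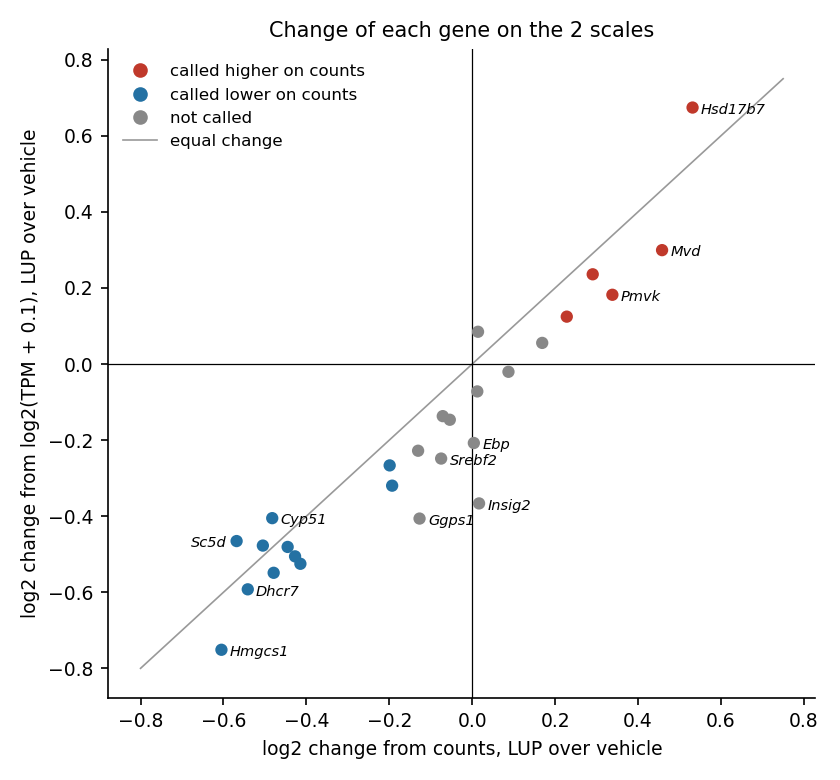
Log2 change of each gene (LUP over vehicle) from counts (x axis) and from log2(TPM + 0.1) (y axis), colored by the call on counts; the line marks equal change. Most points lie below the line, and Insig2, at 0.02 on counts and -0.37 on TPM, lies furthest from it.

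**Figure D4:**
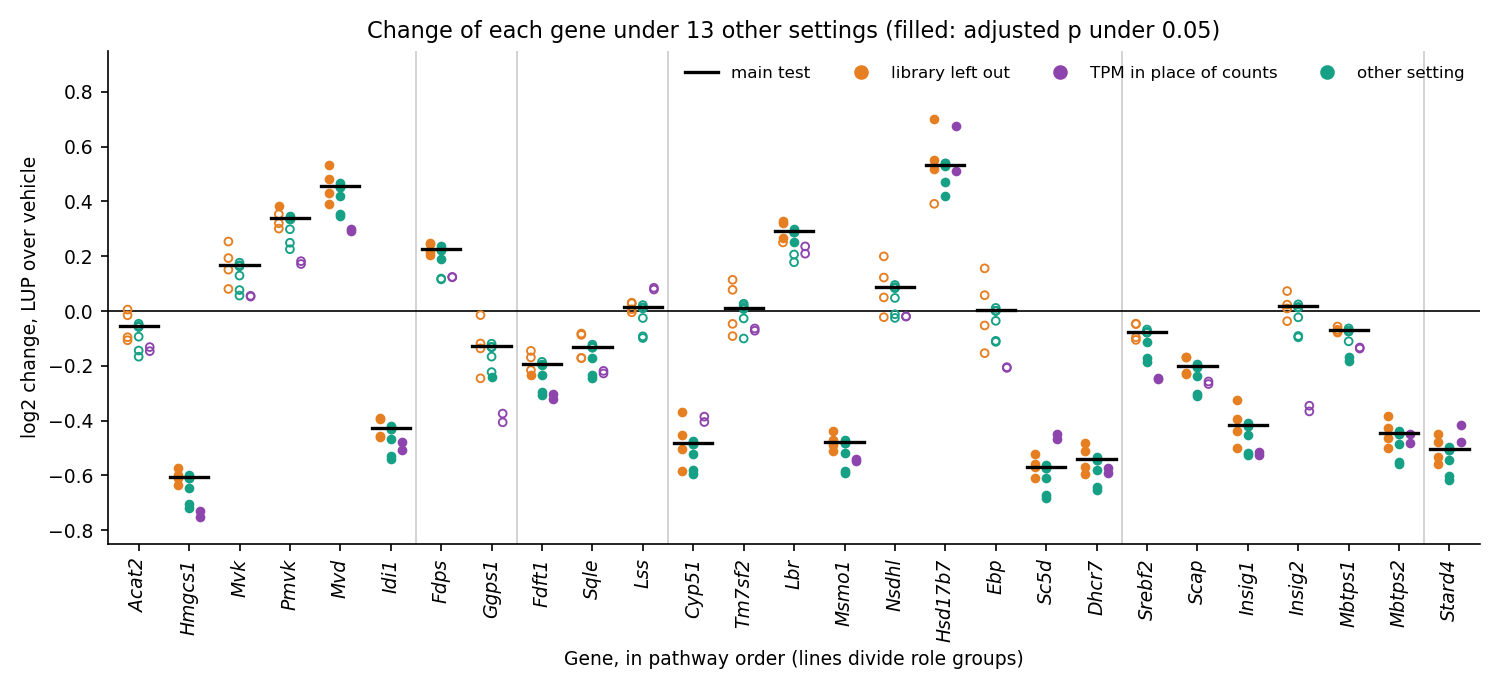
Log2 change of each gene (y axis, LUP over vehicle) in pathway order (x axis) under 13 other settings (12 for Hsd17b7, which the filter of at least 5 TPM removed), with the main test as a black bar, settings that leave out a library in orange, TPM in place of counts in purple and the rest in green; filled points had an adjusted p under 0.05. The points of Hmgcs1 run from -0.75 to -0.57 and are all filled, while those of Pmvk, Lbr and Fdft1 are partly open.

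The authors' deposited table gives an adjusted p under 0.05 to 10 of the 27 genes, against 34.7% of the genes tested here. In the authors' deposited table the genes lower with LUP number 9, against 15.3% of all at that threshold (Hmgcs1, Idi1, Cyp51, Msmo1, Sc5d, Dhcr7, Insig1, Mbtps2 and Stard4) and Mvd is higher, as are 19.4% of all genes at that threshold. The fold in the authors' deposited table is vehicle over LUP, so genes marked there as up are those lower with LUP: of 602 genes whose mean is over 5 TPM in both groups and over 2-fold apart, 600 follow that direction.

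Another 11 genes under SREBP2 serve sterol synthesis and uptake, acetyl-CoA supply or fatty acid desaturation. Of these 9 were tested, and 6 rose while the other 3 did not pass, with a median log2 change of 0.21. Some of the 6 make acetyl-CoA or desaturate fatty acids and are not sterol enzymes. Of all tested genes 27.1% were called higher and 23.7% lower. With upper quartile scaling, after quantile normalization and on both TPM scales 3 rose, and with the first 2 of these settings 1 fell. Tmem97, a regulator of lysosomal cholesterol transport, had 35.4 and 34.3 TPM with LUP and 29.3 and 29.7 TPM with vehicle, a 1.27-fold rise. Acly, which supplies acetyl-CoA, rose 1.11-fold on counts, a call lost without vehicle replicate 2 (adjusted p = 0.0691), with upper quartile scaling (0.523), after quantile normalization (0.212) and on both TPM scales (0.81 and 0.811).

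**Figure D5:**
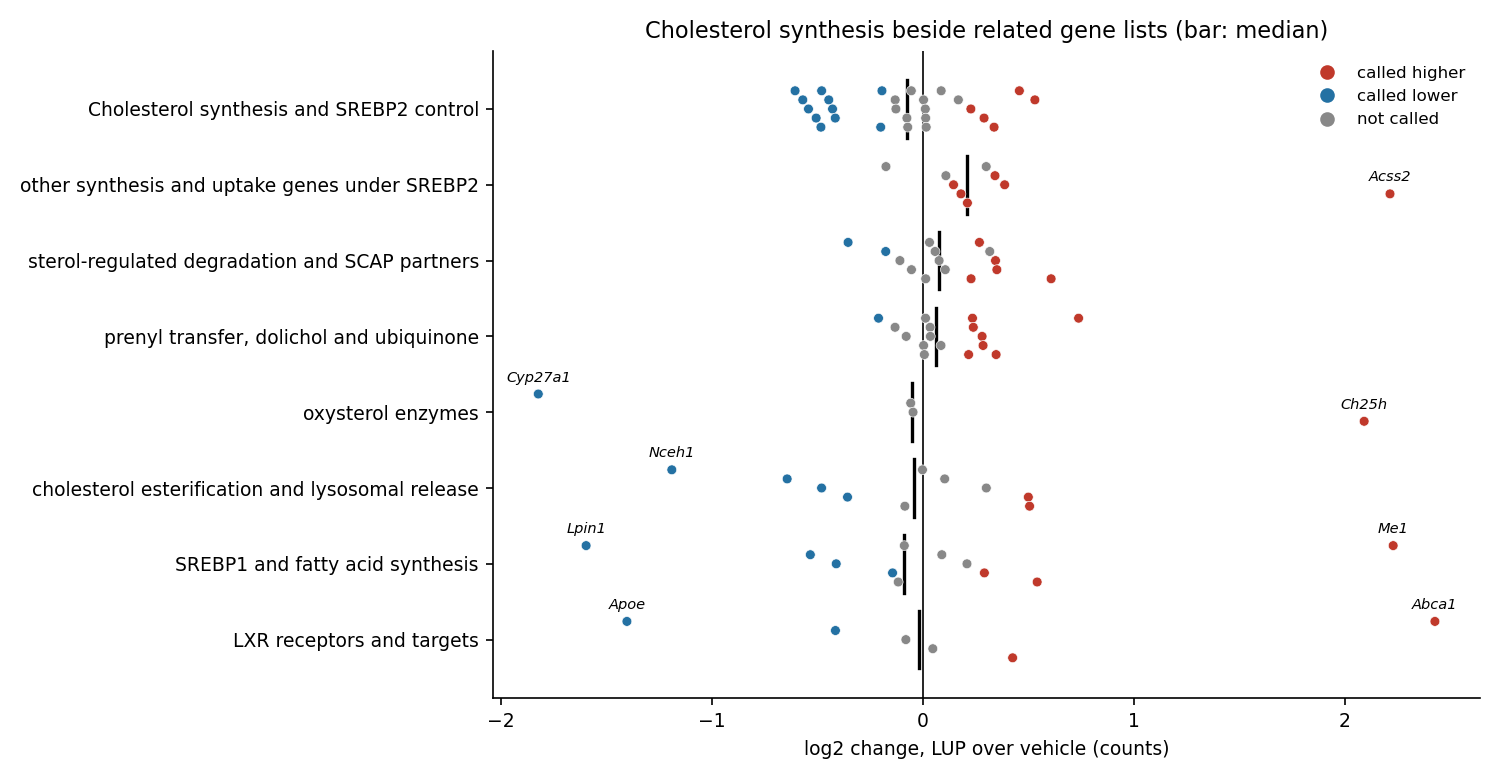
Log2 change (x axis, LUP over vehicle, counts) of each tested gene in the cholesterol synthesis set and in 7 related lists (rows), with a bar at the median and colors for the call. The cholesterol synthesis genes lie between -0.60 and 0.53, while Cyp27a1 and Ch25h in the oxysterol row lie at -1.82 and 2.09.

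Of 15 genes that degrade or escort sterol sensors, 5 rose (33.3%) and 2 fell (13.3%), with a median of 0.08, beside 27.1% and 23.7% of all genes. With upper quartile scaling and after quantile normalization 3 rose, and with limma on log2(TPM + 1) and log2(TPM + 0.1) 1 and 2 did. With upper quartile scaling 3 fell, and after quantile normalization 4 fell. Nploc4, a cofactor of the extractor of ubiquitinated proteins, rose 1.52-fold (log2 0.61, SE 0.045, adjusted p = 1.22e-09), and Aup1 and Syvn1, parts of endoplasmic reticulum degradation complexes, rose 1.27-fold and 1.17-fold. The rises of Aup1 and Syvn1 were not called on the TPM scale (adjusted p = 0.114 and 0.299), nor that of Syvn1 with upper quartile scaling (0.089) or quantile normalization (0.0506). The prenyl transfer, dolichol and ubiquinone list, which draws on the same mevalonate products, had 7 higher and 1 lower of 16 genes (median 0.06), beside 27.1% and 23.7% of all genes. With the DESeq2 test, upper quartile scaling and quantile normalization 4 were higher, and on both TPM scales 2 were. With upper quartile scaling and quantile normalization 3 were lower. With the DESeq2 test, no filter on low counts and both TPM scales 0 were lower. Zmpste24, a protease of prenylated proteins, rose 1.27-fold and Nus1, a subunit of the dolichol synthase, 1.22-fold. Rabggtb, a Rab prenyltransferase subunit, rose 1.16-fold, a call lost in 7 of 13 other settings, among them the fits without LUP replicate 1 (adjusted p = 0.116) and without vehicle replicate 2 (0.167).

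Oxysterols, which hold SREBP2 back through INSIG, are made by a few hydroxylases. Ch25h, which makes 25-hydroxycholesterol, had 3.42 and 3.14 TPM with LUP and 0.79 and 0.85 TPM with vehicle, from 63.9 and 57 counts and from 12 and 15, and rose 4.26-fold (log2 2.09, SE 0.344, adjusted p = 4.58e-05). Cyp27a1, which makes 27-hydroxycholesterol, had 6.20 and 6.19 TPM with LUP and 22.7 and 22.4 TPM with vehicle, and fell 3.53-fold (log2 -1.82, SE 0.093, adjusted p = 4.88e-12). Of the 6 genes in this list 4 were tested, with 1 higher and 1 lower, beside 27.1% and 23.7% of all genes.

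Of 10 tested genes of cholesterol esterification and lysosomal release, 2 rose and 4 fell (median -0.04), beside 27.1% and 23.7% of all genes. Soat1, which esterifies cholesterol for storage, had 286 and 266 TPM with LUP and 389 and 424 TPM with vehicle, and fell 1.56-fold. Lipa, the lysosomal acid lipase, fell 1.39-fold from 925 and 947 TPM to 631 and 620 TPM, while Npc2, a lysosomal cholesterol carrier, rose 1.42-fold. Of 11 tested fatty acid genes under the sister factor SREBP1, 3 rose and 4 fell (median -0.09), beside 27.1% and 23.7% of all genes. Srebf1 itself had 30.1 and 32.3 TPM with LUP and 36.4 and 36.5 TPM with vehicle, and its log2 change of -0.09 did not pass (adjusted p = 0.211), although it did without LUP replicate 2 (-0.15, adjusted p = 0.0269), with upper quartile scaling (-0.20, 0.00519) and after quantile normalization (-0.19, 0.0191). In that list Mid1ip1, an activator of acetyl-CoA carboxylase, fell 1.45-fold and Pcyt2, a phospholipid synthesis gene, 1.33-fold. Elovl5, a fatty acid elongase, fell 1.1-fold, at the edge of the threshold (adjusted p = 0.0484), and the call was lost without LUP replicate 1 (0.125), LUP replicate 2 (0.0661) or vehicle replicate 1 (0.429), with the DESeq2 test (0.173), with no filter on low counts (0.0854) and with the replicate block (0.0661).

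LXR receptors and their targets, some of which export sterol, had 2 higher and 2 lower of 6 genes (median -0.02). Of all tested genes 27.1% were called higher and 23.7% lower. Lpcat3, a phospholipid remodelling enzyme, rose 1.34-fold, and the efflux transporter gene Abcg1 fell 1.33-fold. Apoe, the lipoprotein that carries exported sterol, fell 2.64-fold.

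Outside the naming rule, 5 genes of these lists changed most and were picked after their values were seen. Abca1, the transporter that hands cholesterol to apolipoproteins, stood at 40.9 and 40.02 TPM with LUP and at 7.39 and 8.40 TPM with vehicle, a 5.38-fold rise (adjusted p = 3.30e-18, edgeR). Acss2, which makes acetyl-CoA from acetate, rose 4.64-fold and Me1, a source of NADPH, 4.69-fold. Lpin1, a phosphatidate phosphatase, fell 3.02-fold, and Nceh1, a cholesteryl ester hydrolase, 2.28-fold.

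Reads shared between genes limit a few of these values. Counts were not whole in at least 1 library for 17 of the 27 genes, so some of their reads were split with other genes (a count within 0.001 of a whole number was taken as whole). The 5 Idi1 pseudogenes in the table had no counts, and Acat3, the close copy of Acat2, had at most 6.05 in a library. In GENCODE M21 an exon of 9 members overlaps an exon of another gene, which for 5 members was itself tested. Fdft1 overlaps the opposite-strand gene Ctsb, which held 265631 to 436490 counts in a library, and Cyp51 overlaps Akap9, also on the opposite strand, at 1055 to 1254 counts. As the labels do not say whether the libraries kept the strand, reads in the overlap of Fdft1 and Ctsb cannot be told apart. The counts of Cyp51 and Akap9 were whole in each library, so no split of reads between these genes showed.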

How the data were processed

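RNA of 4 libraries, 2 with LUP and 2 with vehicle, was analysed from 1 table of the whole series. Its expected counts per gene were estimated by the authors and deposited without scaling between libraries; the submitters' processing notes name fastp, HISAT2, StringTie and RSEM with no version. The TPM values, per library and as group means, were deposited by the authors, as were a fold (ratio) and its log2 value. The p-values, raw and adjusted, are those the authors deposited for their own comparison. Its test, the genome build and the annotation: not given in the sources used here. Per the labels' protocols, RNA was extracted with TRIzol and made into paired-end libraries with a TruSeq kit.

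Expected counts were rounded and tested with edgeR 4.0.16 (R 4.3.3): TMM scaling, the default filter on low counts, treatment as the only term, and Benjamini-Hochberg adjustment over the 13355 genes tested. An adjusted p under 0.05 was a call, and changes are LUP over vehicle. The test was checked on simulated counts. Alternatives used DESeq2 1.42.0 and limma 3.58.1. The 2 libraries of each group differed beyond sampling noise (chi-square over its degrees of freedom, 2.67 for vehicle and 3.50 for LUP).

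The genes and lists were chosen with earlier results of these data known. Named genes are the 27 members, from each related list up to 3 called genes with the highest mean TPM, and Ch25h and Srebf1 whatever their values. A few genes that the rule also named are not reported here. All listed symbols were matched in the table. The rule allowed promoters of up to 3 called members in each direction with a RefSeq entry, by size of change, and the first 2 of each are printed.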

Additional observations from a re-analysis of the deposited data

How the results depend on the processing

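The 11 falls and 5 rises among the 27 genes were recomputed under 13 alternatives. The falls numbered 9 to 15 throughout. The rises dropped to 2 with the DESeq2 test, with upper quartile scaling, after quantile normalization and with limma on log2(TPM + 1) or log2(TPM + 0.1), and to 3 with a filter of at least 5 TPM. Leaving out a library in turn gave 3 to 5 rises (3 without vehicle replicate 1 and 3 without vehicle replicate 2) and 9 to 11 falls; in such fits the lone library is assumed to vary like the other group. Of the 16 called genes 9 held their direction and call in all alternatives, and 7 lost the call in at least 1. Of the 11 others, 4 (Ggps1, Sqle, Srebf2 and Mbtps1) were called lower in at least 1.

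The 7 related lists together held 26 higher and 14 lower of 71 tested genes, beside 27.1% higher and 23.7% lower of all genes. With limma on log2(TPM + 1) and log2(TPM + 0.1) 13 and 14 were higher, and 23 were lower with upper quartile scaling and after quantile normalization. Leaving out a library gave 21 to 26 higher and 13 to 15 lower. The causes of these moves were not tested.

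With a replicate block, 5 members were higher and 11 lower, as without it, and the related lists had 26 higher and 13 lower. The fall of Elovl5 was lost (adjusted p = 0.0661) and no other named gene changed its call. The deviations of same-numbered libraries from their group means correlated at -0.066 across 13355 genes. With 2 libraries a group, that value cannot say whether same-numbered libraries shared an animal, culture or batch. The depth of 19949818 to 23617618 counts left Tm7sf2, with at most 95.6 counts, and Hsd17b7 the widest intervals.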
